A study of Mus musculus with 8 samples.

Results

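The glucocorticoid-responsive genes described here are 10 genes, *Fkbp5*, *Tsc22d3*, *Sgk1*, *Zbtb16*, *Mt1*, *Mt2*, *Dusp1*, *Nfkbia*, *Lcn2* and *Ddit4*, of the 44674 genes in the tables. They were chosen by name as genes that glucocorticoids induce, with earlier results of these data known. They were read in each mouse as a sign of the tone of the stress hormone at the end of the clamp. All 10 were found through their Ensembl identifiers in the GENCODE annotation of the mouse, and all 10 passed the filter on low counts. Estimated counts of 35852667 to 50063257 per mouse lay behind the values, with between 133 and 32705 counts for a single gene of the 10 in a single mouse.

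In mice and rats the main glucocorticoid is corticosterone, which the adrenal cortex releases in a daily rhythm and under stress. The hormone binds the glucocorticoid receptor in the cytosol, and the receptor then enters the nucleus and binds DNA at paired short sites or acts through other transcription factors. In fat, glucocorticoids act on lipolysis, lipid storage and inflammation, and in brown fat they are known to restrain thermogenic genes. Most genes of this group also answer to other signals, such as metals for the metallothioneins, inflammation for *Nfkbia* and *Lcn2*, and lack of oxygen or nutrients for *Ddit4*.

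Brown adipose tissue (BAT) of male mice of the C57BL/6N strain was studied by mRNA sequencing, and all mice carried floxed alleles of the orexin receptor Ox1R. The 4 control mice were Ox1R fl/fl, Sert-Cre wt/wt and had no Cre, so that Cre itself and the deletion cannot be told apart. The 4 Ox1RΔSERT mice were Ox1R fl/fl, Sert-Cre tg/wt, and Cre was driven by the gene of the serotonin transporter, *Slc6a4*, which is active in serotonergic neurons. All 8 mice received a high-fat diet (HFD) from week 4 to week 18 and carried a jugular catheter. They were killed by decapitation between 14 and 16 h of the day, at the end of a hyperinsulinemic-euglycemic clamp, in which insulin is infused and glucose is given to hold blood glucose steady. The values thus belong to catheterized, insulin-infused mice at one time of day, and blood corticosterone was not analysed here. Mice are named by the numbers in the labels, 10684, 11253, 11560 and 11563 for controls and 11243, 11601, 11613 and 11708 for Ox1RΔSERT mice, and values are given in this order.

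The RNA fitted the labelled tissue, with *Ucp1*, the uncoupling protein of brown fat, at normalized values of 2513 to 4894. A normalized value is a CPM (a count divided by the size of the library, after TMM scaling), and the floor of 3 counts corresponded to 0.0592 to 0.0951. *Hcrtr1*, the gene of Ox1R, was at 0.159 or less in every mouse, and RNA of BAT cannot show a deletion in neurons of the brain. In a principal component analysis, Ox1RΔSERT mice 11601 and 11708 stood apart on the first component (52.2% of the variance), and values are also given without them where they matter. In bulk tissue, fewer cells of a type and less RNA per cell cannot be told apart.

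The letters near the start sites of 9 of the 10 genes were read from the RefSeq promoter windows of GRCm38.p6, which reach from 250 bases before to 50 bases after a start. *Zbtb16* had no entry. The 9 genes had 16 windows, since *Sgk1* has 6 and *Tsc22d3* has 3 start sites. The window of *Sgk1* is shown because it holds a paired site of the receptor, and those of *Mt1* and *Mt2* because these genes also answer to metals through the factor MTF1. In *Sgk1* at chr10:21993640-21993939 (plus strand), the capitals mark a pair of sites of the glucocorticoid receptor (AGAACA and its reverse complement TGTTCT, with 3 bases between), which begins 189 bases before the start. In *Mt1* at chr8:94178839-94179138 and *Mt2* at chr8:94172368-94172667 (both plus strand), the capitals mark the core of the metal response element, which has A or G in the fourth place (TGCACNC or TGCGCNC), on either strand.
Sgk1: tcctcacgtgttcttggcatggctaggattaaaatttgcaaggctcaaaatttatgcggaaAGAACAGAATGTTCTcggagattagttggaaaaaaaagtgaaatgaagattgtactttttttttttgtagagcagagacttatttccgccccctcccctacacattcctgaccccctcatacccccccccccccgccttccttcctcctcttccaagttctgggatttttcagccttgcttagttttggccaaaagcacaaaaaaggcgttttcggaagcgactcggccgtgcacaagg
Mt1: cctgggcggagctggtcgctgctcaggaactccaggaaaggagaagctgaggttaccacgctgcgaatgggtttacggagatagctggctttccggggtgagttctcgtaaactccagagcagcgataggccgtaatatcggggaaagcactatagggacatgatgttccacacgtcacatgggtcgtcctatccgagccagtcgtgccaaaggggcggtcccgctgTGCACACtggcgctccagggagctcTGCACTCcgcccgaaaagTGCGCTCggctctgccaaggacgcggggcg
Mt2: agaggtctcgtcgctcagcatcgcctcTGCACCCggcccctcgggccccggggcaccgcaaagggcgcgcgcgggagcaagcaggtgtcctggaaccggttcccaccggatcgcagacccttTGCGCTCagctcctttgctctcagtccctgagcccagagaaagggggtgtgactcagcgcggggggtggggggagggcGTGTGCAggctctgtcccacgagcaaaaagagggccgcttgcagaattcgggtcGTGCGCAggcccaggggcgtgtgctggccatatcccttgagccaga

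The paired sites occurred in 1 of the 16 windows, that of *Sgk1*, and in 3 of all 32851 mouse windows (0.00913%). The same window was the only one of the 16 with a pair when 1 mismatch was allowed, as against 0.164% of all windows. A single AGAACA on either strand stood in 4 of the 16 windows (25%), 3 of *Sgk1* and 1 of *Tsc22d3*, and in 19% of all windows. The metal response core stood 4 times in the window of *Mt2* and 3 times in that of *Mt1*. It was found at least once in 6 of the 16 windows (37.5%) and 25.7% of all windows, and at least 3 times in 2 of the 16 windows, those of *Mt1* and *Mt2*, and 1.97% of all windows. With any base in the fourth place (TGCNCNC), the count was 6 for *Mt2* and 3 for *Mt1*, 56.2% of the 16 and 51% of all windows held at least 1, and 3 of the 16 windows, including 1 of *Sgk1*, and 7.1% of all windows held at least 3. These matches describe letters in short windows, and sites farther from the start were not searched.

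Per transcript length, the metallothioneins were by far the highest of the 10 genes. *Mt2* was at 1525 ± 673 TPM (SD, n = 8) and *Mt1* at 1504 ± 413 TPM (SD, n = 8), above 99.8% of the genes tested. *Mt2* was above *Mt1* in 3 of 8 mice, so their order was not separated from the spread. *Tsc22d3* followed at 77.0 ± 26.5 TPM (SD, n = 8), 19.5 times below *Mt1*, and *Dusp1* at 46.4 ± 10.8 TPM (SD, n = 8), each above the next gene in 8 of 8 mice. *Sgk1* (28.9 ± 5.57 TPM), *Nfkbia* (27.3 ± 7.83 TPM) and *Ddit4* (27.0 ± 6.04 TPM, each SD, n = 8) formed a step in which neighbours kept their order in only 5 of 8 mice. *Fkbp5* was at 23.8 ± 8.25 TPM (SD, n = 8), below *Ddit4* in 6 of 8 mice and above *Zbtb16* in 8 of 8. *Zbtb16* (13.9 ± 3.10 TPM) and *Lcn2* (13.01 ± 10.6 TPM, both SD, n = 8) came last, in this order in 5 of 8 mice. The plot of TPM by gene shows this order.

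**Figure D1:**
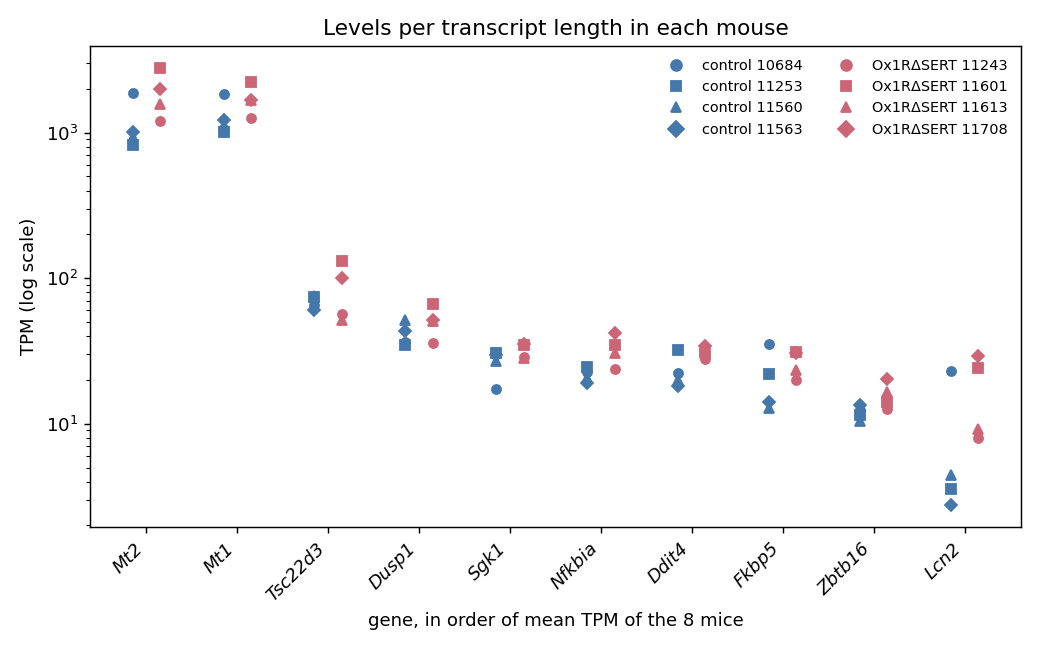
TPM of the 10 genes in each of the 8 mice on a log axis, ordered by the mean of the 8 mice, with control mice in blue and Ox1RΔSERT mice in red. Mt2 and Mt1 average 1525 and 1504 TPM, and the points of Lcn2 spread most, from 2.76 to 29.2 TPM.

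To ask whether loss of Ox1R in serotonergic neurons was accompanied by another glucocorticoid tone in BAT, the 10 genes were compared between the groups. None of the 10 differed beyond the spread between mice. By the quasi-likelihood test of edgeR, 0 of 10 genes had an adjusted p under 0.05, beside 0 of the 14489 genes tested (0%), whose lowest adjusted p was 0.316. The count of genes with an unadjusted p under 0.05 was also 0 of 10, where the background was 15.2% of all genes tested. DESeq2 called 0 of 10 at an adjusted p under 0.05, beside 1.75% of the genes it tested. The groups overlapped for each of the 10 genes, and 5.5% of the genes tested had groups that did not overlap. With only 10 genes, counts of 0 do not set them apart from these shares. The median log2 fold change of the 10 genes, Ox1RΔSERT over control, was 0.067, beside 0.0021 for all genes tested, with 6 genes above 0 and 4 below, and these 4 (*Fkbp5*, *Tsc22d3*, *Sgk1* and *Dusp1*) were above 0 on the TPM scales and with library size scaling.

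**Figure D2:**
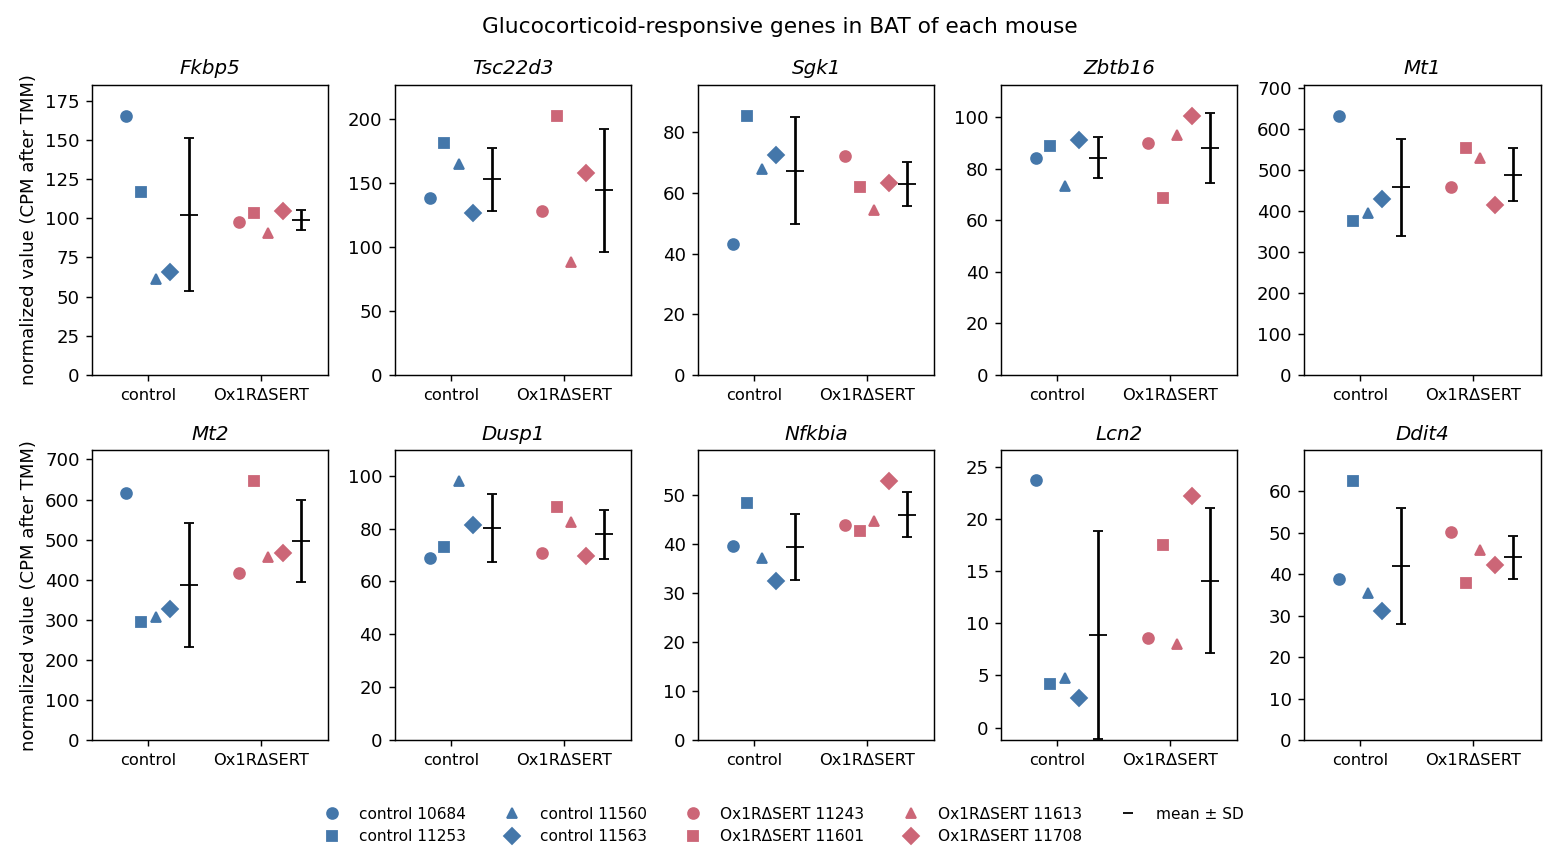
Normalized values (CPM after TMM scaling) of the 10 genes in 4 control mice (blue) and 4 Ox1RΔSERT mice (red), with a symbol for each mouse and the mean ± SD of each group in black. The groups overlap in every panel, and control mouse 10684 (blue circle) stands above the other controls for Fkbp5, Mt1, Mt2 and Lcn2.

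*Fkbp5* (ENSMUSG00000024222, chromosome 17 of GRCm38, 28399094 to 28517527) encodes a co-chaperone that lowers the affinity of the receptor for its hormone, and its induction closes a feedback loop. Normalized values were 165, 117, 61.2 and 65.8 in controls and 97.6, 103, 90.8 and 105 in Ox1RΔSERT mice. The controls split into a high and a low pair, and all Ox1RΔSERT mice lay between these pairs. The means were 102 ± 49.0 and 99.1 ± 6.38 (SD, n = 4 each). Fitted over all genes, *Fkbp5* had a log2 fold change of -0.04 (standard error 0.29, 95% interval -0.71 to 0.62, edgeR adjusted p = 0.955). On the linear scale this interval runs from 0.61-fold to 1.54-fold.

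*Tsc22d3* (ENSMUSG00000031431, chromosome X, 140539528 to 140600659) encodes GILZ, a leucine zipper protein through which glucocorticoids dampen inflammation. Its normalized values were 138, 181, 165 and 127 in controls and 128, 203, 88.6 and 158 in Ox1RΔSERT mice. The highest and the lowest of the 8 mice were both Ox1RΔSERT mice. Over the groups, *Tsc22d3* had a log2 fold change of -0.08 (standard error 0.24, 95% interval -0.62 to 0.46, edgeR adjusted p = 0.886). Without Ox1RΔSERT mice 11601 and 11708, the 2 left were at 128 and 88.6, beside 127 in the lowest control. It had then a log2 fold change of -0.49 (standard error 0.20) at an unadjusted p of 0.0416 and an adjusted p of 0.996 in edgeR, and *Tsc22d3* was the 1 of 10 genes with an unadjusted p under 0.05, beside 2.85% of all genes in that fit.

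*Dusp1* (ENSMUSG00000024190, chromosome 17, 26505590 to 26562128) encodes a phosphatase that switches off MAP kinases. Normalized values were 68.9, 73.1, 97.8 and 81.3 in controls and 70.8, 88.3, 82.5 and 69.5 in Ox1RΔSERT mice. All Ox1RΔSERT mice lay within the range of the controls, and the log2 fold change was -0.05 (standard error 0.13, 95% interval -0.35 to 0.26, edgeR adjusted p = 0.887). Of its 3311 exon bases, 11 overlap *Ergic1* on the opposite strand.

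*Nfkbia* (ENSMUSG00000021025, chromosome 12, 55489410 to 55492647) encodes IκBα, the inhibitor that keeps NF-κB in the cytosol and that NF-κB itself induces. Normalized values were 39.7, 48.4, 37.3 and 32.5 in controls and 44.0, 42.7, 44.7 and 52.9 in Ox1RΔSERT mice. The Ox1RΔSERT mice lay above all controls but 11253. The means were 39.5 ± 6.66 and 46.0 ± 4.61 (SD, n = 4 each), and the log2 fold change was 0.22 (standard error 0.13, 95% interval -0.07 to 0.52). It did not pass the test (edgeR adjusted p = 0.419). An exact permutation test over the 70 assignments of mice to groups gave a two-sided p of 0.171, where the smallest possible p is 0.0286.

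*Sgk1* (ENSMUSG00000019970, chromosome 10, 21882184 to 21999903) encodes a kinase of ion transport and cell survival that steroids induce and insulin activates. Normalized values were 43.2, 85.3, 67.9 and 72.4 in controls and 72.1, 61.9, 54.3 and 63.1 in Ox1RΔSERT mice. The lowest value belonged to control mouse 10684, the mouse in which *Fkbp5* was highest, so these 2 targets did not move together there. Between the groups, the log2 fold change was -0.10 (standard error 0.19, 95% interval -0.53 to 0.34, edgeR adjusted p = 0.824).

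*Zbtb16* (ENSMUSG00000066687, chromosome 9, 48654297 to 48836222) encodes PLZF, a zinc finger repressor that glucocorticoids induce in many cells. Normalized values were 84.1, 88.8, 73.4 and 91.2 in controls and 90.3, 68.6, 93.1 and 101 in Ox1RΔSERT mice. It was among the steadiest of the 10 genes, with the highest mouse 1.47 times above the lowest, and the log2 fold change was 0.06 (standard error 0.13, 95% interval -0.23 to 0.36, edgeR adjusted p = 0.833).

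*Ddit4* (ENSMUSG00000020108, chromosome 10, 59949669 to 59951834) encodes REDD1, an inhibitor of mTORC1 signalling. Normalized values were 39.0, 62.4, 35.5 and 31.2 in controls and 50.3, 38.0, 45.9 and 42.3 in Ox1RΔSERT mice. Control mouse 11253 was highest, the other controls were lower than most Ox1RΔSERT mice, and the log2 fold change was 0.07 (standard error 0.21, 95% interval -0.40 to 0.54, edgeR adjusted p = 0.886).

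*Mt1* (ENSMUSG00000031765, chromosome 8, 94179082 to 94180327) and *Mt2* (ENSMUSG00000031762, chromosome 8, 94172664 to 94173568) are neighbours and encode small proteins that bind zinc and copper. *Mt1* had normalized values of 633, 376, 395 and 429 in controls and 458, 554, 530.2 and 415 in Ox1RΔSERT mice. *Mt2* had 616, 295, 309 and 328 in controls and 416, 645, 458 and 467 in Ox1RΔSERT mice. Control mouse 10684 was high for both, and the other 3 controls were below all Ox1RΔSERT mice for *Mt2*. For *Mt1* the log2 fold change was 0.10 (standard error 0.18, 95% interval -0.32 to 0.51, edgeR adjusted p = 0.819). That of *Mt2* was 0.36 (standard error 0.26, 95% interval -0.23 to 0.95, edgeR adjusted p = 0.504), with a two-sided p of 0.171 in the exact permutation test.

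The ratio of *Mt2* to *Mt1* in TPM was 1.02, 0.812, 0.821 and 0.830 in controls and 0.953, 1.26, 0.935 and 1.19 in Ox1RΔSERT mice. It was above 1 in control mouse 10684 and in Ox1RΔSERT mice 11601 and 11708. The transcripts of *Mt1* and *Mt2* had no stretch of 31 bases in common, so that their reads could be told apart. *Mt2* shares 432 of its 588 exon bases (73.5%) with *Gm45774* on the opposite strand, and whether the counting used strand was not given in the sources used here.

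*Lcn2* (ENSMUSG00000026822, chromosome 2, 32384633 to 32388252) encodes lipocalin 2, a secreted acute-phase protein that binds iron carriers of bacteria and is made by fat cells, macrophages and neutrophils. Normalized values were 23.7, 4.22, 4.74 and 2.82 in controls and 8.56, 17.5, 8.01 and 22.2 in Ox1RΔSERT mice. It varied most of the 10 genes, 8.42 times from the lowest to the highest mouse, and the highest mouse was a control. The means were 8.87 ± 9.93 and 14.1 ± 6.96 (SD, n = 4 each). Its log2 fold change was 0.67 (standard error 0.68, 95% interval -0.88 to 2.21, edgeR adjusted p = 0.642), and the exact permutation test gave a two-sided p of 0.2. Without Ox1RΔSERT mice 11601 and 11708, the direction turned, with a log2 fold change of -0.09 (standard error 0.82, edgeR adjusted p = 0.996).

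Markers of other cells were set beside *Lcn2*. Of 10 neutrophil markers, 4 were tested, and the sum of all 10 lay between 3.93 and 24.8 in controls and 12.7 and 37.6 in Ox1RΔSERT mice. *S100a9*, an abundant neutrophil protein gene, had 11.2, 4.22, 5.28 and 1.85 in controls and 6.62, 10.5, 13.1 and 19.6 in Ox1RΔSERT mice. It was high in the control with high *Lcn2*. *S100a8*, its partner, *Mmp8*, a collagenase, and *Retnlg*, a secreted protein, were also highest among the controls in mouse 10684, with *Mmp8* at 2.72 there and 0.42 to 1.49 in the other controls and *Retnlg* at 2.88 and 0.294 to 0.948. In Ox1RΔSERT mice *Mmp8* was at 1.20 to 3.15 and *Retnlg* at 0.907 to 2.45. The granule marker *Ngp* had 9 counts in control mouse 10684, 0 or 1 in the other controls and 2 to 5 in Ox1RΔSERT mice. The other granule and lineage markers, *Ly6g*, *Mpo*, *Elane*, *Camp* and *Ltf*, were at 0.153 or less in every mouse. The summed level of 8 macrophage markers was 172, 250.3, 111 and 139 in controls and 183, 904, 197 and 706 in Ox1RΔSERT mice, highest in the 2 Ox1RΔSERT mice with the highest *Lcn2* of their group but not in control mouse 10684. Their part in the values of *Lcn2* was not tested.

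**Figure D3:**
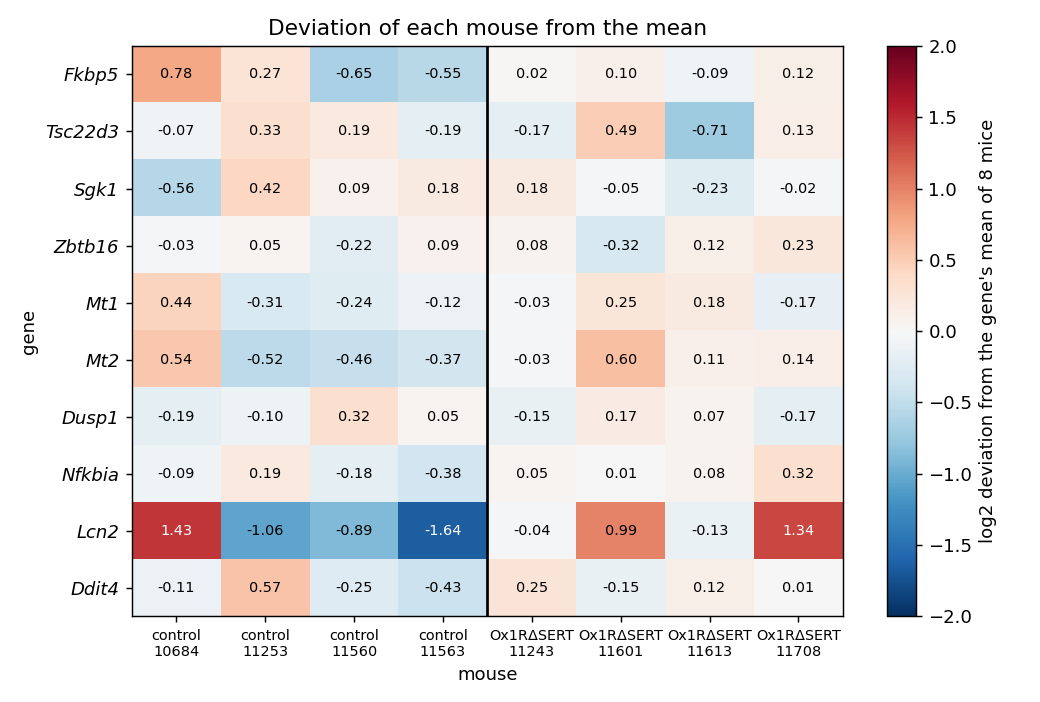
Log2 deviation of each mouse (columns) from the mean of the 8 mice for each of the 10 genes (rows), with red above and blue below the mean and the value written in each cell. Control mouse 10684 is 1.43 above the mean for Lcn2 and 0.78 above for Fkbp5 but 0.56 below for Sgk1, which is written as -0.56.

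Read mouse by mouse, no order of the mice was common to all 10 genes. Control mouse 10684 was highest for 3 genes (*Fkbp5*, *Mt1* and *Lcn2*) and lowest for 2 (*Sgk1* and *Dusp1*), and over all genes tested it was highest for 18.7% and lowest for 18.4%. Ox1RΔSERT mouse 11601 was highest for *Tsc22d3* and *Mt2* and lowest for *Zbtb16*. Ox1RΔSERT mouse 11243 was neither highest nor lowest for any of the 10. Controls 11560 and 11563 ranked low, at a median rank of 7 and 6.5 of 8 (rank 1 is the highest mouse), where the other 6 mice had a median rank between 3.5 and 5.

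The spread between control mice was wide for these genes. The coefficient of variation was larger in controls than in Ox1RΔSERT mice for 8 of 10 genes, with medians of 26.0% and 12.4%, whereas over all genes tested it was larger in controls for 39.7%, with medians of 14.9% and 17.4%. Without control mouse 10684, it was larger in controls for 5 of 10 genes, with medians of 16.4% and 12.4%, as against 26.4% of all genes. For *Fkbp5* the coefficient of variation was 47.9% in controls and 6.43% in Ox1RΔSERT mice. No test was made of this difference in spread.

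*Mt2* and *Lcn2* depended on control mouse 10684 and on Ox1RΔSERT mice 11601 and 11708. Without these 2 Ox1RΔSERT mice, *Mt2* had a log2 fold change of 0.18 (standard error 0.30, edgeR adjusted p = 0.996), and it was -0.09 for *Lcn2*, as given above. Without control mouse 10684, *Mt2* and *Lcn2* were higher in each of the 4 Ox1RΔSERT mice than in each of the 3 other controls (2 of 10 genes), where 14.3% of the genes tested had no overlap. For *Mt2* the log2 fold change was then 0.67 (standard error 0.16, adjusted p = 0.306 with edgeR and 0.00817 with DESeq2). For *Lcn2* it was 1.84 (standard error 0.42, adjusted p = 0.306 with edgeR and 0.000868 with DESeq2). In these fits 2 of 10 genes had an unadjusted p under 0.05 in edgeR, beside 15.7% of all genes, and 2 of 10 were called by DESeq2, beside 2.64%. No label sets mouse 10684 apart from the other controls. It stood out by its own values of *Mt2* and *Lcn2*, so the fits without it are no separate support for these 2 genes. The comparison with all 8 mice stands as the main one.

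Control mouse 10684 also differed from the other controls in genes outside the group. *Dio2*, the deiodinase that makes active thyroid hormone in brown fat, was at 198 in this mouse, 818 to 1126 in the other 3 controls and 198 to 534 in Ox1RΔSERT mice. *Hsp90aa1*, a chaperone of the glucocorticoid receptor, was at 402 in this mouse and 712 to 1591 in the other controls. *Glul*, glutamine synthetase and a glucocorticoid target, was highest there at 1921, as against 902 to 1563 in the other 7 mice. In 6 of 20 other glucocorticoid targets this mouse was highest, and in 3 it was lowest, beside 18.7% and 18.4% of all genes tested.

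**Figure D4:**
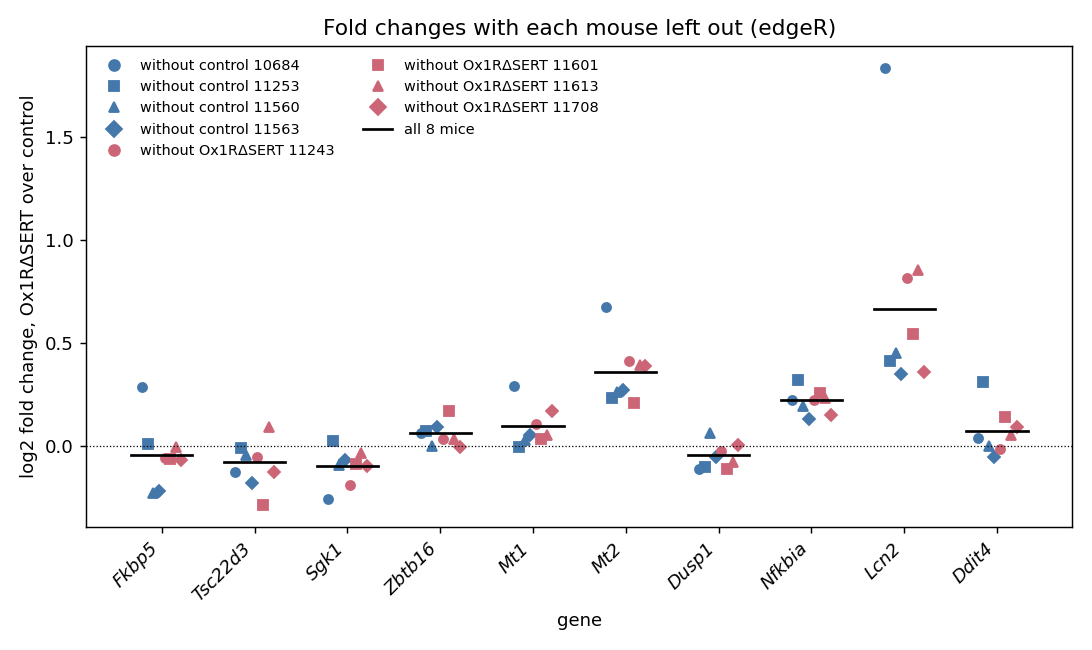
Log2 fold change, Ox1RΔSERT over control, of the 10 genes with all 8 mice (black bar) and with each mouse left out in turn (symbols), from edgeR. Leaving out control mouse 10684 (blue circle) moves Lcn2 from 0.67 to 1.84, Mt2 from 0.36 to 0.67 and Fkbp5 from -0.04 to 0.29.

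On the TPM scale, most genes were higher in Ox1RΔSERT mice, with a median log2 fold change of all genes of 0.25 on the log2(TPM + 1) scale. The share of counts from mitochondrially encoded genes was 33.6% to 36.2% in Ox1RΔSERT mice 11601, 11613 and 11708 and 40.0% to 46.8% in the other 5 mice, and their part in this shift was not tested. On that scale the median of the 10 genes was 0.40, and 4 of 10 (*Zbtb16*, *Mt2*, *Nfkbia* and *Ddit4*) had an unadjusted p under 0.05 with limma-trend, beside 22.2% of all genes. With log2(TPM + 0.1) the same 4 genes had it, beside 22.5%. With library size scaling, which moved the median of all genes to 0.22, it was 1 of 10 (*Nfkbia*), beside 21.4%, and without control mouse 11253 it was also *Nfkbia* alone, beside 13.7%. None of these had an adjusted p under 0.05.

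The other genes of the pathway gave a mixed picture. Of 20 further glucocorticoid targets, 6 had an unadjusted p under 0.05 (30% of the list, where the background was 15.2%), and 0 had an adjusted p under 0.05 in edgeR. The list was chosen with earlier results of these data known, so a share above the background is no separate support. *Cebpd*, *Angptl4*, *Anxa1*, *Txnip* and *Errfi1* were higher (5 of 20, beside 10.2% of all genes) and *Bcl6* was lower (1 of 20, beside 4.96%) in Ox1RΔSERT mice. *Errfi1*, a feedback inhibitor of the EGF receptor, was at 99.1 and 82.9 in mice 11601 and 11708, 46.7 and 51.7 in the other Ox1RΔSERT mice and 23.7 to 51.9 in controls. With all mice it had a log2 fold change of 0.78 (standard error 0.31), and 0.28 (standard error 0.29) without 11601 and 11708. For *Bcl6*, a transcriptional repressor, it was -0.40 (standard error 0.16) with all mice and -0.67 (standard error 0.15) without them. By sign alone, 9 of the 20 were higher and 11 lower, with a median log2 fold change of -0.08. DESeq2 called 2 of 20, *Cebpd* and *Angptl4*, beside 1.75% of all genes.

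*Cebpd*, a transcription factor of early fat cell differentiation and of the acute-phase response, had normalized values of 11.5, 10.3, 10.2 and 8.39 in controls and 17.9, 24.8, 21.3 and 16.0 in Ox1RΔSERT mice. The groups did not overlap. It had a log2 fold change of 0.99 (standard error 0.16, 95% interval 0.62 to 1.35, adjusted p = 0.316 with edgeR and 0.00072 with DESeq2). Without mice 11601 and 11708 it was 0.96 (standard error 0.15), and without control mouse 10684 it was 1.05 (standard error 0.17).

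*Angptl4*, a secreted inhibitor of lipoprotein lipase that fasting and glucocorticoids induce and insulin represses, had 83.1, 98.6, 53.0 and 62.9 in controls and 123, 169.7, 149.7 and 162 in Ox1RΔSERT mice. These groups did not overlap either. It had a log2 fold change of 1.02 (standard error 0.20, 95% interval 0.57 to 1.47, adjusted p = 0.316 with edgeR and 0.00188 with DESeq2). Without mice 11601 and 11708 it was 0.88 (standard error 0.23). For both genes the exact permutation test gave 0.0286, the smallest two-sided p that it allows. Groups without overlap always give this p, and 5.5% of the genes tested had such groups. *Pdk4*, a brake on glucose oxidation and another target that insulin represses, was at 1391 ± 461 in controls and 1830 ± 547 in Ox1RΔSERT mice (SD, n = 4 each), with a log2 fold change of 0.40 (standard error 0.28, edgeR adjusted p = 0.503).

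*Anxa1*, which encodes the anti-inflammatory protein annexin A1, rested on the same 2 mice that were high in macrophage markers. It was at 35.4, 39.9, 29.5 and 37.8 in controls and 41.8, 219, 33.9 and 158 in Ox1RΔSERT mice. *Anxa1* had a log2 fold change of 1.67 (standard error 0.56, edgeR adjusted p = 0.316), and 0.09 (standard error 0.14) without mice 11601 and 11708. *Txnip*, an inhibitor of glucose uptake, was at 695, 636, 770.1 and 587 in controls and 1127, 753, 1066 and 758 in Ox1RΔSERT mice. It was highest in the other 2 Ox1RΔSERT mice, 11243 and 11613. *Txnip* had a log2 fold change of 0.46 (standard error 0.17, edgeR adjusted p = 0.316), and it was 0.71 (standard error 0.13) without 11601 and 11708.

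**Figure D5:**
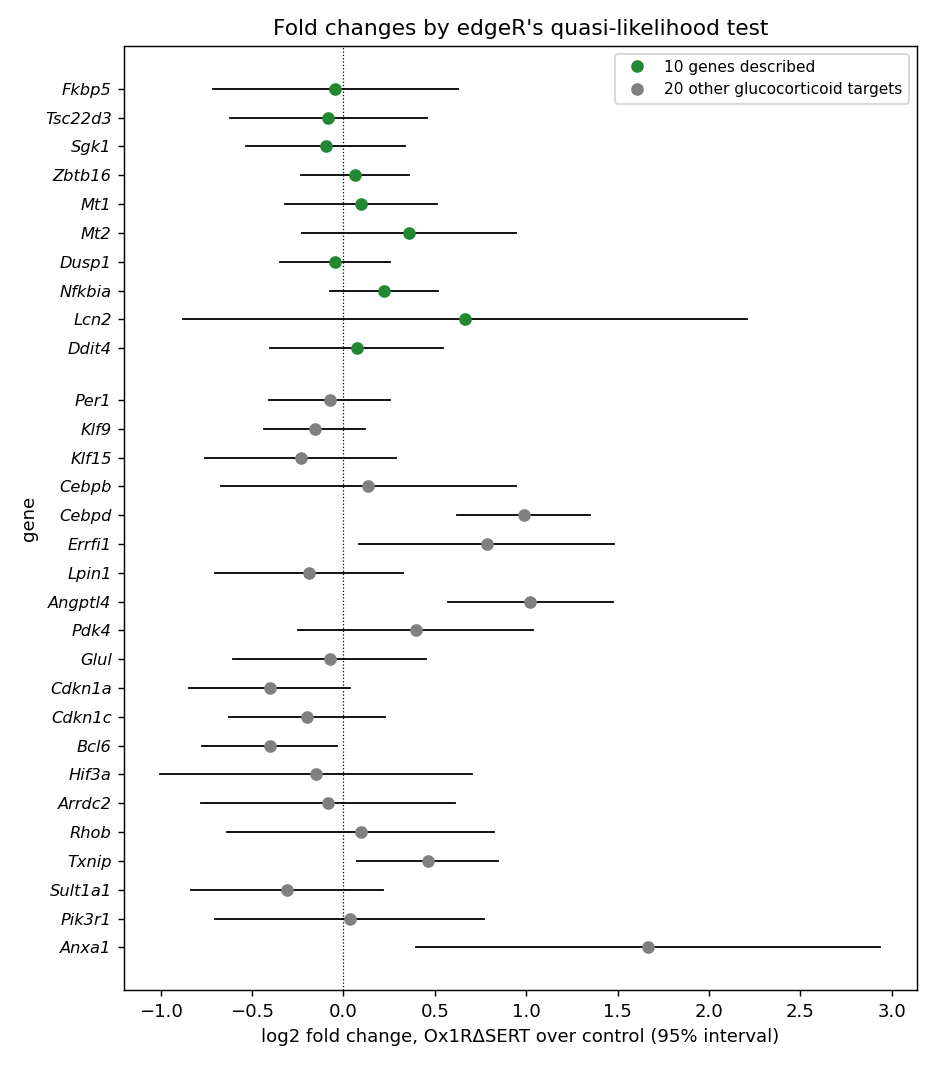
Log2 fold change, Ox1RΔSERT over control, with 95% interval from edgeR's quasi-likelihood test for the 10 genes described (green) and 20 other glucocorticoid targets (grey). The intervals of all 10 include 0, and those of Cebpd (0.99) and Angptl4 (1.02) lie wholly above it, as do those of Errfi1, Txnip and Anxa1. That of Bcl6 (-0.40) lies wholly below 0.

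The receptors and enzymes upstream of these targets did not differ beyond the spread between mice. Of 13 genes of steroid receptors, their chaperones and steroid handling, 12 were tested, and 0 had an unadjusted p under 0.05, beside 15.2% of all genes. *Nr3c1*, the glucocorticoid receptor, had normalized values of 64.9, 69.1, 87.3 and 82.1 in controls and 69.8, 69.7, 71.6 and 63.3 in Ox1RΔSERT mice. The Ox1RΔSERT mice were close together and overlapped the lower controls. *Nr3c1* had a log2 fold change of -0.15 (standard error 0.11, 95% interval -0.39 to 0.10, edgeR adjusted p = 0.524). *Nr3c2*, the mineralocorticoid receptor, which also binds corticosterone, was low, at 2.40 ± 1.59 in controls and 2.69 ± 0.46 in Ox1RΔSERT mice (SD, n = 4 each).

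*Hsd11b1*, the enzyme that regenerates active glucocorticoid within the cell, was at 59.1, 32.3, 39.2 and 24.2 in controls and 52.8, 21.1, 46.8 and 39.2 in Ox1RΔSERT mice. The highest value was again that of control mouse 10684. Its log2 fold change was 0.05 (standard error 0.33, 95% interval -0.70 to 0.79, edgeR adjusted p = 0.956). *Hsp90aa1* had 402, 712, 1583 and 1591 in controls and 617, 529.5, 772 and 633 in Ox1RΔSERT mice, with controls 11560 and 11563 apart from the other 6 mice. These were the 2 controls with the lowest *Fkbp5*. Its log2 fold change was -0.75 (standard error 0.40, edgeR adjusted p = 0.384), and that of *Hsp90ab1* was -0.29 (standard error 0.23, edgeR adjusted p = 0.557).

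Since *Nfkbia* and *Lcn2* also answer to NF-κB, 16 other targets and members of that pathway were described, of which 15 were tested. At an unadjusted p under 0.05, 8 of 15 were higher, beside 10.2% of all genes, and 0 were lower, beside 4.96%, and 0 passed the adjusted threshold in edgeR. This list, too, was chosen with earlier results of these data known. The median log2 fold change was 0.60. DESeq2 called 2 higher, *Nfkb2* and *Cxcl1*, beside 1.54% of the genes it tested. *Nfkb2*, a subunit of the factor, was at 8.997, 7.13, 7.77 and 8.85 in controls and 10.4, 16.1, 10.6 and 14.6 in Ox1RΔSERT mice, with no overlap. *Cxcl1*, a chemokine of neutrophils, was at 1.78, 0.412, 1.33 and 1.45 in controls and 2.75, 11.9, 1.82 and 13.9 in Ox1RΔSERT mice. *Birc3*, an inhibitor of apoptosis (log2 fold change 0.66, standard error 0.21), and *Icam1*, an adhesion molecule (0.60, standard error 0.19), had an edgeR adjusted p of 0.316 each. *Ccl2*, a chemokine of monocytes, was at 9.68, 2.41, 2.60 and 6.54 in controls and 4.08, 30.0, 3.68 and 31.9 in Ox1RΔSERT mice, and *Sod2*, the mitochondrial superoxide dismutase, had a log2 fold change of -0.31 (standard error 0.14, edgeR adjusted p = 0.339). For *Nfkb2*, *Cxcl1* and *Ccl2* the 2 highest values belonged to mice 11601 and 11708, in which the macrophage markers were highest, and all 8 macrophage markers were higher at an unadjusted p under 0.05, beside 10.2% of all genes. The part of other cells in these values was not tested.

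Genes of the response to metals and heme were described beside the metallothioneins. Of 6 such genes, 4 were tested and 0 had an unadjusted p under 0.05, beside 15.2% of all genes. *Slc39a14*, an importer of zinc and iron, was at 112, 75.1, 74.3 and 63.7 in controls and 74.6, 121, 85.6 and 105 in Ox1RΔSERT mice. Its high mice, control 10684 and Ox1RΔSERT mice 11601 and 11708, were those with an *Mt2* to *Mt1* ratio above 1. *Hmox1*, heme oxygenase, was at 84.0, 251, 395 and 512 in controls and 132, 241, 1081 and 231 in Ox1RΔSERT mice, and here control mouse 10684 was lowest. Skeletal muscle markers summed to between 42.0 and 1974 in controls and 18.8 and 2690 in Ox1RΔSERT mice, highest in control 11253 and Ox1RΔSERT mouse 11708. Brown adipocyte markers summed to between 13105 and 14396 in controls and 8718 and 12548 in Ox1RΔSERT mice. Of these 10 markers, 9 were lower by sign and 1 was higher. At an unadjusted p under 0.05 in edgeR, 3 were lower (*Elovl3*, *Ucp1* and *Dio2*), beside 4.96% of all genes. *Elovl3*, a fatty acid elongase, had a log2 fold change of -1.07 (standard error 0.31, adjusted p = 0.316 with edgeR and 0.0406 with DESeq2) and *Ucp1* one of -0.54 (standard error 0.18, edgeR adjusted p = 0.316). *Fabp4*, of the highest TPM in this list beside *Ucp1*, had one of -0.29 (standard error 0.16, edgeR adjusted p = 0.399). The part of muscle and brown adipocytes in the values of the 10 genes was not tested.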

How the data were processed

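The authors prepared stranded poly-A libraries from BAT of 8 mice and quantified genes with Salmon 0.14.1 in nf-core/rnaseq 1.4, with GRCm38 as the reference (STAR is also listed in the processing notes). They deposited estimated counts per gene, not normalized, and TPM values, which were scaled by the authors for transcript length and to the same sum in each mouse. Read filters and the annotation release were not given in the sources used here. Symbols and positions came from GENCODE release M21, which matched 44118 of 44674 identifiers (98.8%), and promoter sequences from RefSeq.

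The whole table of estimated counts, rounded to integers, was fitted with edgeR 4.0.16 in R 4.3.3 (filterByExpr, TMM, glmQLFit, glmQLFTest; two-sided, Benjamini-Hochberg over all genes tested, threshold 0.05), without covariates. Intervals are 95% intervals of the log2 fold change. Exact permutation tests used log2(CPM + 0.1) over 70 assignments. Alternatives were DESeq2 1.42.0, limma-trend 3.58.1 on log2(TPM + 1) or log2(TPM + 0.1) for genes with at least 0.5 TPM in 4 mice, RLE and library size scaling, mitochondrially encoded genes left out, no filter or at least 10 counts in every mouse, and mice left out (DESeq2 with a mouse left out, and the metal response core with A or G in the fourth place, were added after the data were seen). The authors' DESeq2 1.26.0 results were not used. Floors of 3 counts cover counting error only.

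The 10 genes and all lists were chosen with earlier results of these data known. The text names all 10 genes, *Nr3c1*, *Nr3c2* and *Hsd11b1*, and from each list at most 4 genes with the lowest unadjusted p under 0.05 and the 2 genes of highest TPM. From the lists of macrophage and skeletal muscle markers no gene is named. *Hcrtr1*, *Errfi1*, *Bcl6* and neutrophil markers other than *S100a8* and *S100a9* were named after their values were seen. The scripts were tested on simulated data. Separate mice are the replicates.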

Additional observations from a re-analysis of the deposited data

Results flagged for a closer look

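Among the 20 groups of 4 mice (10 genes in 2 groups each), 2 had a mouse far from the others by Dixon's test at the 95% level, where chance gives about 1 in 20. Both were control mouse 10684. The test used normalized values without logs, and log2 values were not tested in this way. Its normalized value was 616 for *Mt2*, where the other 3 controls lay between 295 and 328, and 23.7 for *Lcn2*, where they lay between 2.82 and 4.74. The values of both genes without this mouse are given above. For *Mt1* the same mouse was at 633 and the gap to the next control was 0.796 of the range; this did not pass the test.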

How the results depend on the processing

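Over 25 alternatives, edgeR with all 8 mice under another scaling or filter and limma-trend called 0 of the 10 genes, as did DESeq2, and 36 of 250 fold changes had the other sign. At an adjusted p under 0.05, fits with 1 mouse left out called 0 to 2 of the 10. The 2 were *Mt2* and *Lcn2* in DESeq2 without control mouse 10684, beside 2.64% of all genes. At an unadjusted p under 0.05 it was 0 to 3 with 1 mouse left out. The 3 were in DESeq2 without 10684, where the share over all genes was not counted, so they cannot be read against it. In edgeR without 10684 it was 2, beside 15.7% of all genes. With limma-trend it was 4 on log2(TPM + 1), beside 22.2%, and 4 on log2(TPM + 0.1), beside 22.5%. Library size scaling gave 1, beside 21.4%, and edgeR without mice 11601 and 11708 gave 1, beside 2.85%. The median of the 10 genes was 0.40 and 0.41 on the TPM scales and 0.28 with library size scaling, where the median of all genes was 0.25, 0.31 and 0.22. On these scales, in the same order, the log2 fold change turned positive for *Fkbp5* (0.40, 0.42, 0.17), *Tsc22d3* (0.20, 0.20, 0.17), *Sgk1* (0.30, 0.31, 0.12) and *Dusp1* (0.28, 0.28, 0.18), and those of *Fkbp5* on both TPM scales and of *Sgk1* and *Dusp1* on log2(TPM + 1) exceeded the median of all genes. Without mice 11601 and 11708, *Lcn2* was at -0.094. With 1 mouse left out, in edgeR or DESeq2, log2 fold changes ran from -0.24 to 0.29 for *Fkbp5*, -0.30 to 0.089 for *Tsc22d3*, -0.27 to 0.029 for *Sgk1*, -0.0077 to 0.17 for *Zbtb16*, -0.0056 to 0.29 for *Mt1*, 0.20 to 0.67 for *Mt2*, -0.12 to 0.060 for *Dusp1*, 0.13 to 0.33 for *Nfkbia*, 0.35 to 1.84 for *Lcn2* and -0.056 to 0.32 for *Ddit4*, and their median from -0.0023 (without control 11563) to 0.14 (without control 10684). The cause of these changes was not tested. Of the 20 other targets, DESeq2 called 2, and 0 to 5 were called with 1 mouse left out, 5 without Ox1RΔSERT mouse 11243 and 3 without 11613. Over all genes DESeq2 called 265, but 17 without control 11560, 49 without control 11563, 17 without Ox1RΔSERT mouse 11601, 19 without 11708, 936 without 11613 and 1516 without 11243. No paired analysis was made, because no label pairs a control with an Ox1RΔSERT mouse. The paper states that both genotypes came from the same litters, but the labels name no litter.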

Other observations

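Genes of the immediate early response, which growth factors and stress switch on within minutes, were described as signals other than glucocorticoids that could reach *Dusp1*. Of 12 such genes, 11 were higher in Ox1RΔSERT mice by sign, where 7301 of all 14489 genes tested were higher. At an unadjusted p under 0.05 in edgeR 4 were higher, beside 10.2% of all genes, with 0 past the adjusted threshold and a median log2 fold change of 0.75. The sum of the 12 was 141, 199.7, 221 and 219 in controls and 208, 337, 269 and 295 in Ox1RΔSERT mice, highest in 11601 and 11708. DESeq2 called 4 higher, *Fos*, *Junb*, *Ier3* and *Zfp36*, beside 1.54% of the genes it tested. *Zfp36*, which encodes the mRNA decay factor TTP and is also known as a glucocorticoid target, was at 26.4, 29.6, 28.7 and 24.9 in controls and 37.5, 51.5, 36.5 and 51.7 in Ox1RΔSERT mice, with no overlap (log2 fold change 0.69, standard error 0.14, edgeR adjusted p = 0.316, DESeq2 adjusted p = 0.00577). *Ier3* was at 7.48, 6.75, 8.56 and 6.91 in controls and 16.5, 10.3, 14.8 and 10.1 in Ox1RΔSERT mice, and its 2 highest values were not those of mice 11601 and 11708. *Fos* was at 4.03, 8.15, 7.72 and 4.98 in controls and 7.82, 36.9, 8.28 and 26.0 in Ox1RΔSERT mice, where 11601 and 11708 were highest. *Junb* had a log2 fold change of 0.90 (standard error 0.22) and *Jun* one of 0.25 (standard error 0.17), with edgeR adjusted p-values of 0.316 and 0.47.

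Of 10 genes of the integrated stress response and of hypoxia, which also induce *Ddit4*, 1 was higher and 1 lower at an unadjusted p under 0.05, beside 10.2% and 4.96% of all genes, and 0 passed the adjusted threshold in edgeR or DESeq2. *Ddit3*, the stress factor CHOP, was at 12.2 ± 1.08 in controls and 16.0 ± 2.54 in Ox1RΔSERT mice (SD, n = 4 each), and *Asns*, asparagine synthetase, at 41.5 ± 2.22 and 35.7 ± 3.46 (SD, n = 4 each). *Atf4* (log2 fold change -0.19, standard error 0.24, edgeR adjusted p = 0.707) and *Vegfa* (-0.10, standard error 0.22, edgeR adjusted p = 0.841), the genes of highest TPM of this list, did not pass the test.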
